A study of Mus musculus with 12 samples.

Results

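DNA replication genes and mitosis genes were followed across mouse enteric nervous system (ENS) cultures exposed to 6-mercaptopurine (6-MP), to lipopolysaccharide (LPS) or to both. The list named 46 genes, 27 of them acting in S phase and 19 in mitosis. Members were taken by gene symbol from the platform annotation, with the brightest transcript cluster for a symbol, and 44 of the 46 were found among 22206 transcript clusters. These were 26 S-phase and 18 mitotic genes, each measured by 1 cluster. Mcm7 and Ccnb1 were not analysed here.

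Per the labels, the cultures came from the gut of mouse embryos at embryonic day 14.5, whereas the study's methods give a range of days that ends on it. The methods name the Sox10flox mouse line for all cultures, with the modification of no relevance to the study. The cultures were kept in serum medium (DMEM with 10% fetal calf serum) for 24 h and then in DMEM-HAMF12 with the N2 supplement, in every group. Control cultures were left untreated, 6-MP cultures received 50 µM 6-MP over 16 h, LPS cultures received 10 ng/ml LPS over 6 h, and LPS + 6-MP cultures received both, the 6-MP first. Each group had 3 biological replicates hybridised to 1-colour Clariom S arrays, 12 arrays in all, and sex was not given.

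Before a cell divides it copies its genome in S phase and shares the copies out in mitosis. Licensing factors load the Mcm helicase onto origins, Cdc45 and the Gins complex switch it on, and DNA polymerases then copy both strands behind the sliding clamp Pcna. Mitosis is driven by the kinase Cdk1 with its cyclins, is held back by the spindle checkpoint until all chromosomes are attached, and is completed by motors of the spindle. S-phase genes are largely under E2F transcription factors, which the Rb family holds in check, whereas many mitotic genes are read from promoters with CCAAT boxes and a cell cycle homology region (CHR) bound by the DREAM and MuvB complexes. 6-MP is a purine analogue whose thioguanine nucleotides are built into DNA, where mismatch repair can recognise them. LPS is a bacterial cell wall component sensed by Toll-like receptor 4. In the developing gut, dividing cells include enteric progenitors as well as muscle, mesenchyme and epithelium.

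RefSeq promoter windows (GRCm38.p6), each 250 bases before to 50 after the annotated start site, were found for 36 of the 44 members, 21 S-phase and 15 mitotic. For the 2 members with more than 1 window a match in any window was counted. Both strands were searched for an E2F-type motif (TTTNNCGC), the CHR (TTTGAA) and the CCAAT box (CCAAT). None of these letter strings contains another. The E2F-type motif was found in 10 of 21 S-phase windows (47.6%) and in 1 of 15 mitotic windows, that of Cdk1, against 5.17% of all 32851 windows in the table. The CHR was found in 12 of 15 mitotic windows (80%) and in 3 of 21 S-phase windows, those of Mcm2, Cdc45 and Fen1, against 17.9% of all windows. A CCAAT box was found in 14 of 15 mitotic and 11 of 21 S-phase windows, against 37.4% of all windows. Both a CHR and a CCAAT box were present in 12 mitotic and 2 S-phase windows, against 6.95% of all windows. These matches describe letters in a window, not bound sites.

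Of these promoters, 5 are printed. Those of Cdc6, Cdk1, Ccnb2 and Cenpf belong to members on which the comparisons below turn, and that of the helicase subunit Mcm6 was chosen for its E2F-type matches. Cdc6 (chr11:98908001-98908170, plus strand) and Mcm6 (chr1:128359686-128359855, minus strand) are S-phase genes. Cdk1 (chr10:69352893-69353062), Ccnb2 (chr9:70421535-70421704) and Cenpf (chr1:189688067-189688236), all on the minus strand, are mitotic. Each line runs 5′ to 3′ along the gene, over 150 bases before the start site and 20 from it on, and capitals mark motif matches. A match on the opposite strand reads GCGNNAAA for the E2F-type motif, TTCAAA for the CHR and ATTGG for the CCAAT box.
Cdc6: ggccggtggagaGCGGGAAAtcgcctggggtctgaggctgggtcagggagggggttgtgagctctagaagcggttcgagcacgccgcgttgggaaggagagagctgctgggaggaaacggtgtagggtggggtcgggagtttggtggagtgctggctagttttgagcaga
Mcm6: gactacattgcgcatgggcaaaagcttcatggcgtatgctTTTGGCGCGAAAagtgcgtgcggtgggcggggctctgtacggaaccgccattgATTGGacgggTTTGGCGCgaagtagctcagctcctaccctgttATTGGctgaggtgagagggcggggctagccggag
Cdk1: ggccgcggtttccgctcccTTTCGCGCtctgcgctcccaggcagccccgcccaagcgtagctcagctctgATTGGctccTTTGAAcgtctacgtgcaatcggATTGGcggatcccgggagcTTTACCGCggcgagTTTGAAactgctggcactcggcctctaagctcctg
Ccnb2: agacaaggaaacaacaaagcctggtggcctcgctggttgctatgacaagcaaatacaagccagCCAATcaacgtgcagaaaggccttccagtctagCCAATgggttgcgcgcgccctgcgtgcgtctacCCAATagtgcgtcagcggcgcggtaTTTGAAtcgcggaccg
Cenpf: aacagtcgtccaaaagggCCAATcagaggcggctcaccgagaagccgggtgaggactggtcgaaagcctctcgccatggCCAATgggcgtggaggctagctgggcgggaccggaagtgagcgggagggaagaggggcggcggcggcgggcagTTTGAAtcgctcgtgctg

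The Cdc6 sequence held 1 E2F-type match and no CHR or CCAAT box. Mcm6 held 3 E2F-type matches, 2 of them overlapping, and 2 CCAAT boxes. Cdk1 held 2 matches of each motif, and was the only member with both an E2F-type match and a CHR. Ccnb2 and Cenpf each held a CHR a few bases downstream of the start site, with 3 and 2 CCAAT boxes upstream of it.

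**Figure D1:**
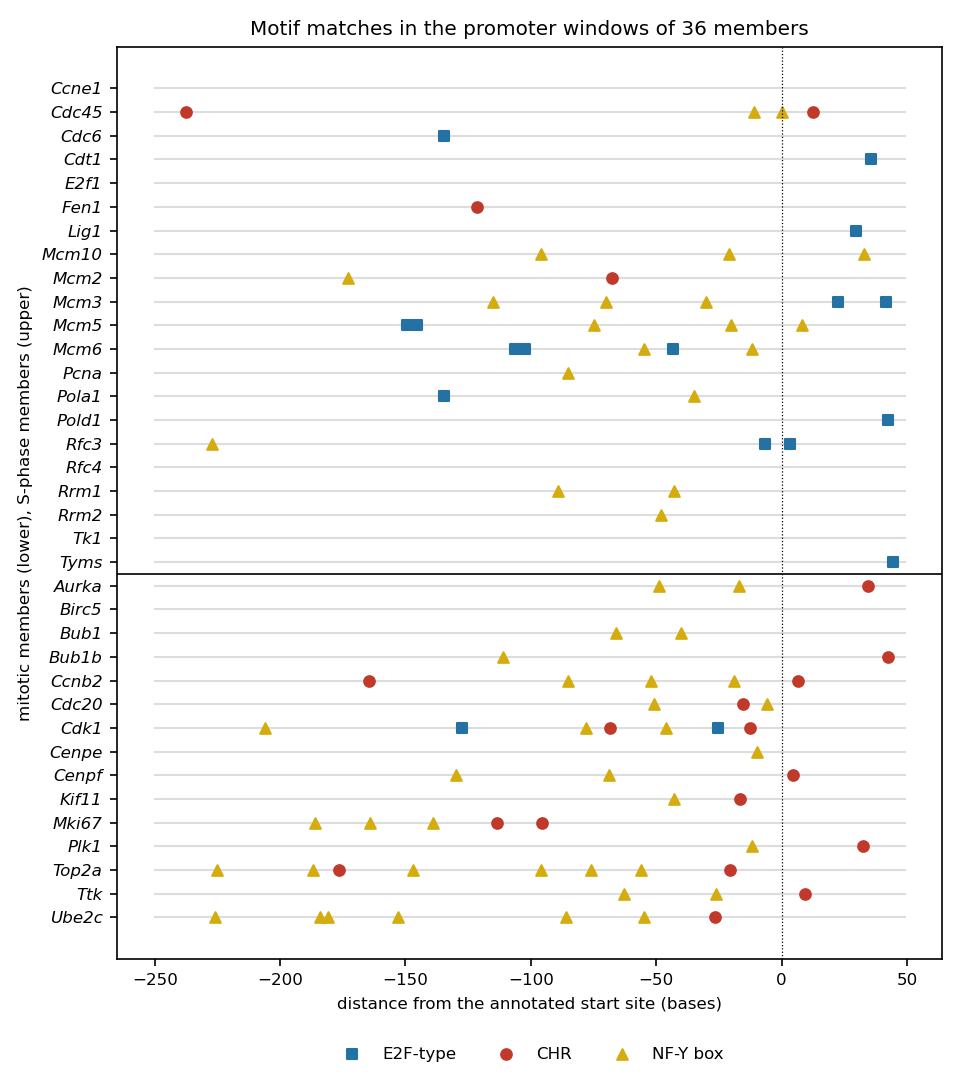
Motif matches in the promoter windows of 36 members, with distance from the annotated start site in bases on the x axis and 1 line per gene (21 S-phase genes above, 15 mitotic genes below). Squares are E2F-type matches (10 of 21 S-phase genes), circles CHR matches (12 of 15 mitotic genes) and triangles CCAAT boxes, named NF-Y box in the key after the factor that binds them.

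Values are log2 array signals. Across the 12 arrays, medians of all clusters lay between 7.41 and 7.53. Of 1452 sensory receptor clusters (smell, taste and pheromone receptors), presumed mostly silent in gut cultures, 90 percent lay under 5.78. This was taken as the level below which a gene cannot be told from a silent one. All 44 members had every group mean above it, and 6 came within 1 log2 unit of it in some array (E2f1, Cenpf, Tk1, Pole, Pold1 and Pola1). The control arrays carried neuronal RNA (Elavl4 at 11.04 and Tubb3 at 11.14), the progenitor and glial gene Fabp7 (10.65), and RNA of muscle (Acta2, 18.05), mesenchyme (Col1a1, 15.68), epithelium (Epcam, 14.87) and macrophages (C1qa, 11.68). The glial markers Sox10 (5.43) and S100b (3.72) were below the silent level. Of the 8 glial and progenitor genes found, 6 had a group mean above it, among them Ednrb (13.99 in the controls). The study's methods report enteric glial cells in these cultures by immunohistochemistry, as a personal observation. Since the RNA is that of a mixed culture, fewer dividing cells and less RNA of these genes per cell cannot be told apart.

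Of the 12 arrays, 4 stood apart from the others, 1 in each group: control 2, 6-MP 1, LPS 2 and LPS + 6-MP 1. On the second principal component of all clusters, with 25% of the variance, they scored 33.19 to 48.16 and the other 8 arrays -32.52 to -8.16. The members were lower in them. Against the mean of the other 8 arrays, the median difference was -0.36 for S-phase members (22 of 26 below 0, range -0.91 to 0.33) and -0.41 for mitotic members (18 of 18 below 0, range -0.72 to -0.06), beside 0.01 for all clusters. Mean levels of marker lists differed too, by -1.36 for smooth muscle genes, -0.56 for macrophage genes, -0.56 for mesenchyme genes, 0.60 for neuronal genes, 0.89 for epithelial genes and 1.66 for interferon-stimulated genes. The differences were smaller for glial and progenitor genes (0.13), endothelial genes (0.00) and core histone genes (0.03). The study's methods give 3 independent experiments, and these 4 arrays carry different replicate numbers. The sources do not say whether they come from 1 experiment with its numbers crossed, and this was not tested. The comparisons treat arrays as unpaired, so the distance of these 4 from the others is part of the SE and p of each. As each group held 1 of them, each comparison was also made without all 4.

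**Figure D2:**
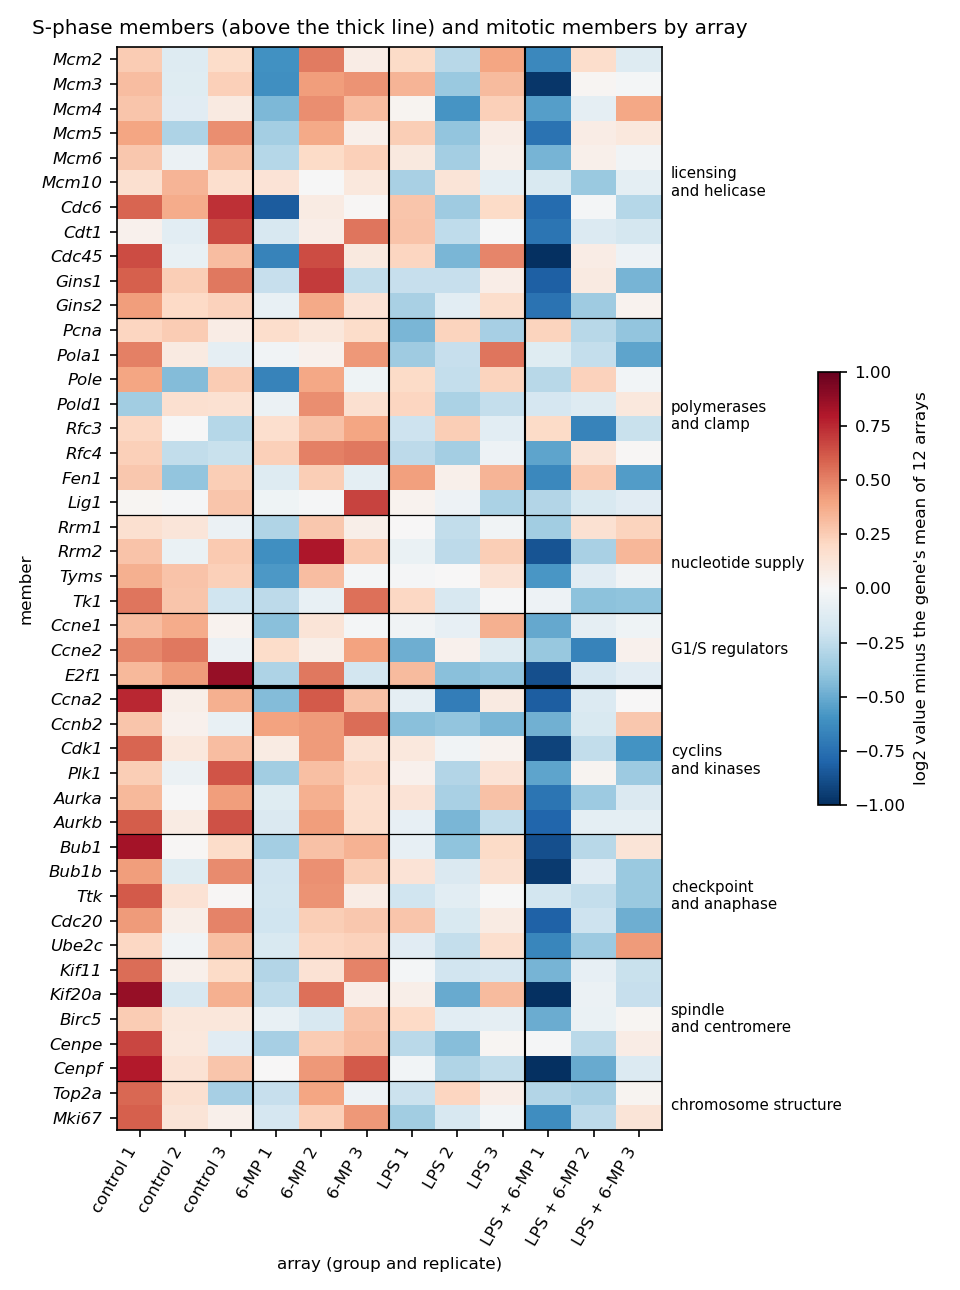
Log2 value of each of the 44 members minus its own mean over the 12 arrays (colour scale in log2 units, clipped at 1), with arrays in columns by group and members in rows by role, S-phase genes above the thick line. LPS + 6-MP 1, where the median deviation was -0.54 for S-phase and -0.69 for mitotic members, is the bluest column, and control 1 (0.30 and 0.58) is mostly red.

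The level of the whole module in each array was given by the median over members of the deviation from the gene's mean. For S-phase members it was 0.30, 0.05 and 0.23 in the controls, -0.27, 0.30 and 0.15 with 6-MP, 0.03, -0.24 and 0.07 with LPS, and -0.54, -0.10 and -0.05 with LPS + 6-MP. For mitotic members it was 0.58, 0.06 and 0.29 in the controls, -0.19, 0.38 and 0.26 with 6-MP, -0.05, -0.27 and 0.05 with LPS, and -0.69, -0.22 and -0.12 with LPS + 6-MP. In both classes the lowest array of each group was the one that stood apart. Control and LPS + 6-MP arrays did not overlap in either class, with the controls higher, whereas 6-MP and control arrays overlapped in both.

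**Figure D3:**
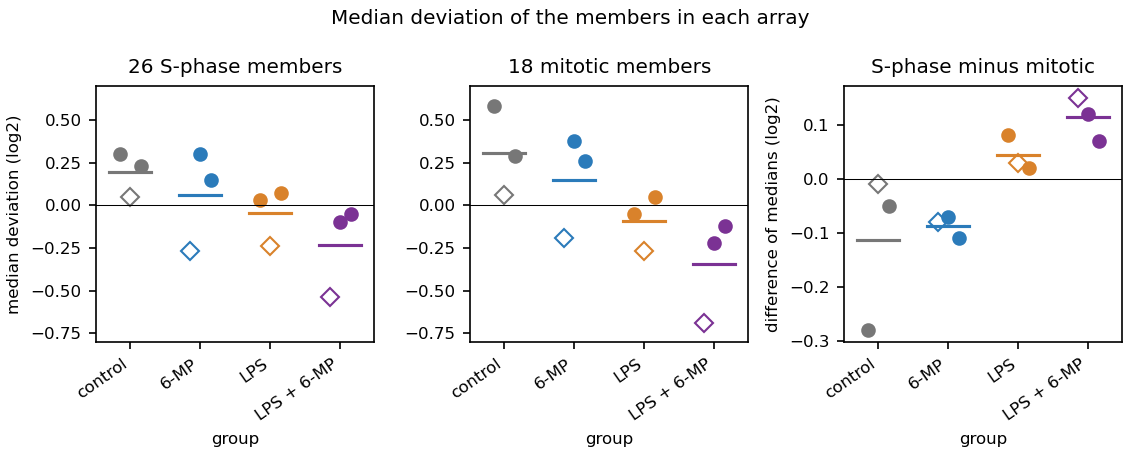
Median deviation of the 26 S-phase members (left) and the 18 mitotic members (middle) in each array, and their difference (right), in log2 units by group. Bars are group means, open diamonds the 4 arrays that stand apart and filled dots the other 8, and the difference is below 0 in all 6 arrays without LPS (-0.28 to -0.01) and above 0 in all 6 with LPS (0.02 to 0.15).

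Comparisons were made in limma over all 22206 clusters, and each is given with the unadjusted p and the p adjusted by the Benjamini-Hochberg method over all clusters. A gene is said to have fallen or risen only at an adjusted p under 0.05. The comparisons share arrays: the arrays of every group enter more than 1 of them, so values of a gene in different comparisons are not independent. No member reached a fold of 2 in any comparison.

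The first question was what 6-MP, which acts through DNA, did to these genes. No S-phase or mitotic member passed the adjusted threshold with 6-MP, either without LPS or with it. Without LPS, the S-phase genes Cdc6 (lower) and Rfc4 (higher) passed the unadjusted limit and no mitotic gene did, where 0.905% of all clusters were lower and 1.22% higher. In the presence of LPS, Fen1 of the S-phase genes and Cdk1 and Cdc20 of the mitotic genes were lower at that limit, where 1.4% of all clusters were. The median member of both classes lay slightly below 0 in both comparisons.

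Cdc6, which loads the Mcm helicase onto replication origins, showed the largest difference of any member with 6-MP alone. It measured 8.35, 8.14 and 8.50 in the controls and 6.93, 7.85 and 7.78 with 6-MP, and 8.04, 7.41 and 7.96 with LPS and 7.0, 7.75 and 7.48 with LPS + 6-MP. All 3 arrays with 6-MP alone were below all 3 controls, whereas with LPS the groups overlapped. 6-MP minus control was -0.81 (SE 0.28, 95% interval -1.41 to -0.20), which is 1.75-fold lower (unadjusted p = 0.0135, adjusted p = 1 in limma). LPS + 6-MP minus LPS was -0.39 (SE 0.28, unadjusted p = 0.183). Without the array 6-MP 1 the first difference was -0.51 (unadjusted p = 0.0739), and without all 4 arrays that stood apart it was -0.61 (unadjusted p = 0.0142). The mean of both 6-MP comparisons was -0.60 (SE 0.20, unadjusted p = 0.0101), and stayed under the unadjusted limit when any 1 array was left out (highest unadjusted p = 0.0271).

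Rfc4, a subunit of the clamp loader that places Pcna on DNA, lay the other way. It measured 11.68, 11.19 and 11.22 in the controls and 11.68, 11.94 and 11.97 with 6-MP. The lowest 6-MP array lay just above the highest control. The difference was 0.50 (SE 0.21, 95% interval 0.04 to 0.96, unadjusted p = 0.0345, adjusted p = 1), and lost the unadjusted limit without control 2, control 3, 6-MP 2 or 6-MP 3 (highest unadjusted p = 0.11). With LPS as well, 6-MP made a difference of 0.09 in Rfc4.

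The other S-phase genes differed by less than Cdc6 with 6-MP alone. E2f1 was at -0.53 there (SE 0.30, unadjusted p = 0.097 in limma), further from 0 than Rfc4, and its groups overlapped. Among the 11 licensing and helicase genes the median over both 6-MP comparisons was -0.20, with Mcm2 at -0.21 and Mcm5, also a helicase subunit, at -0.15. Among the 8 genes of polymerases, clamp and strand joining it was 0.01, with Pcna at 0.01 (95% interval -0.32 to 0.34). Fen1, the nuclease that trims Okazaki fragments, was 9.18, 8.82 and 9.11 with LPS and 8.12, 9.03 and 8.21 with LPS + 6-MP. Those groups overlapped through 1 array, and the difference was -0.58 (SE 0.26, unadjusted p = 0.0478), past the unadjusted limit in only 2 of 6 fits that each left out 1 of these arrays. It was lost without LPS 1, LPS 3, LPS + 6-MP 1 or LPS + 6-MP 3 (highest unadjusted p = 0.173).

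Enzymes of nucleotide supply had a median of -0.18 over both 6-MP comparisons. Tyms, thymidylate synthase, was at -0.34 (SE 0.16, unadjusted p = 0.0529) and at -0.15 without the 4 arrays that stood apart (unadjusted p = 0.341). Rrm2, the ribonucleotide reductase subunit, was at -0.13 (SE 0.25, 95% interval -0.68 to 0.41). The G1/S regulators were at -0.32 for Ccne1 (unadjusted p = 0.0498), -0.12 for Ccne2, both E-type cyclins, and -0.38 for E2f1 (unadjusted p = 0.0965). Ccne1 lost the unadjusted limit in 8 of 12 fits that left out 1 array (highest unadjusted p = 0.128), and was at -0.18 without the 4 arrays that stood apart. The 8 arrays were control 1, control 2, 6-MP 1, 6-MP 3, LPS 1, LPS 3, LPS + 6-MP 1 and LPS + 6-MP 2.

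Of the mitotic genes, Cdk1 and Cdc20 were lower with 6-MP beside LPS. Cdk1, the kinase that drives entry into mitosis, measured 11.09, 10.61 and 10.81 in the controls and 10.59, 10.93 and 10.66 with 6-MP, and 10.61, 10.47 and 10.54 with LPS and 9.58, 10.26 and 9.91 with LPS + 6-MP. The LPS + 6-MP arrays were the lowest 3 of the 12, whereas 6-MP alone overlapped the controls. LPS + 6-MP minus LPS was -0.62 (SE 0.20, 95% interval -1.06 to -0.18), which is 1.54-fold lower (unadjusted p = 0.00942, adjusted p = 1). It kept the unadjusted limit when any 1 of the 6 arrays was left out (highest unadjusted p = 0.0486), but was -0.49 (unadjusted p = 0.0581) without the 4 arrays that stood apart. 6-MP minus control was -0.11.

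Cdc20, which activates the anaphase-promoting complex once the checkpoint is satisfied, was 9.17, 8.74 and 8.97 with LPS and 8.08, 8.68 and 8.40 with LPS + 6-MP. These groups did not overlap. The difference was -0.57 (SE 0.22, 95% interval -1.05 to -0.10, unadjusted p = 0.021, adjusted p = 1), and the unadjusted limit was lost without LPS 1 or LPS + 6-MP 1 (highest unadjusted p = 0.0924). It was -0.53 without the 4 arrays that stood apart (unadjusted p = 0.0283). Bub1b, a kinase-like protein of the spindle checkpoint, was at -0.53 in the same comparison (unadjusted p = 0.0581).

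Ccnb2, a B-type cyclin, stood out among the mitotic genes by its direction. It measured 12.12, 11.89 and 11.77 in the controls and 12.25, 12.27 and 12.40 with 6-MP, and 11.43, 11.45 and 11.39 with LPS and 11.36, 11.69 and 12.11 with LPS + 6-MP. All 3 arrays with 6-MP alone lay above all controls, and 2 of 3 LPS + 6-MP arrays lay above all LPS arrays. The mean of both 6-MP comparisons was 0.34 (SE 0.14, 95% interval 0.04 to 0.63, unadjusted p = 0.0293, adjusted p = 1). That was lost without control 2, control 3, 6-MP 3, LPS 3 or LPS + 6-MP 3 (highest unadjusted p = 0.0749), and was 0.44 (unadjusted p = 0.0234) without the 4 arrays that stood apart. Of the other mitotic genes, Plk1, a kinase of spindle assembly, was at -0.23 over both 6-MP comparisons, Top2a, which untangles sister chromatids, at -0.16, and Mki67, which coats mitotic chromosomes and marks dividing cells, at -0.08 (95% interval -0.45 to 0.28).

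In counts, 6-MP minus control had 1 of 26 S-phase and 0 of 18 mitotic members lower at an unadjusted p under 0.05, where 0.905% of all clusters were, and 1 S-phase member higher, where 1.22% were. LPS + 6-MP minus LPS had 1 S-phase and 2 mitotic members lower (1.4% of all clusters) and none higher (2.21%). The mean of both had 2 S-phase (Cdc6 and Ccne1) and 2 mitotic members (Cdc20 and Cdk1) lower (1.55% of all clusters) and 1 mitotic member (Ccnb2) higher (2.26%). At an adjusted p under 0.05 none of the 22206 clusters passed in any of the 3. Groups did not overlap, with 6-MP below control, for Mcm10 and Cdc6 (2.46% of all clusters) and with 6-MP above for Rfc4 and Ccnb2 (3.45%). With LPS they did not overlap for Tyms, Cdk1 and Cdc20, all lower with 6-MP (3.55% of all clusters), and no member lay wholly above (4.74%). On the 8 arrays left when those that stood apart were removed, 6-MP minus control had 1 S-phase member lower (1.37% of all clusters) and 1 higher (1.88%), LPS + 6-MP minus LPS had 2 mitotic members lower (2.73%) and none higher (2.36%), and the mean of both had 1 of each class lower (3.24%) and 1 of each class higher (3.01%).

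The median change with 6-MP alone was -0.10 over the S-phase members (21 of 26 below 0) and -0.14 over the mitotic members (17 of 18 below 0), beside 0.01 over all clusters, 48.6% of which were below 0. In the presence of LPS the medians were -0.24 (21 of 26) and -0.20 (16 of 18), beside 0.00 and 49.3%. Over the mean of both they were -0.15 (19 of 26) and -0.17 (16 of 18), beside 0.01 and 48.3%. Without the array 6-MP 1 the medians with 6-MP alone were 0.06 and 0.03. They were -0.02 and -0.10, and -0.10 and -0.10 in the presence of LPS, on the 8 arrays other than those that stood apart.

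The next question was what LPS did to the same genes, without and with 6-MP before it. With LPS, 41 of 44 members were below 0, as were 56.6% of all clusters, and after 6-MP 42 of 44 were, as were 54.5% of all clusters. Cenpf and Ccnb2 were lower at an adjusted p under 0.05 in the mean of both LPS comparisons (1.31% of all clusters), and no S-phase gene was. At the unadjusted limit 11 of 18 mitotic and 7 of 26 S-phase members were lower in that mean, where 9.41% of all clusters were, and none was higher, where 6.76% were. The kinases and cyclins of mitosis and the G1/S regulators had the lowest medians.

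**Figure D4:**
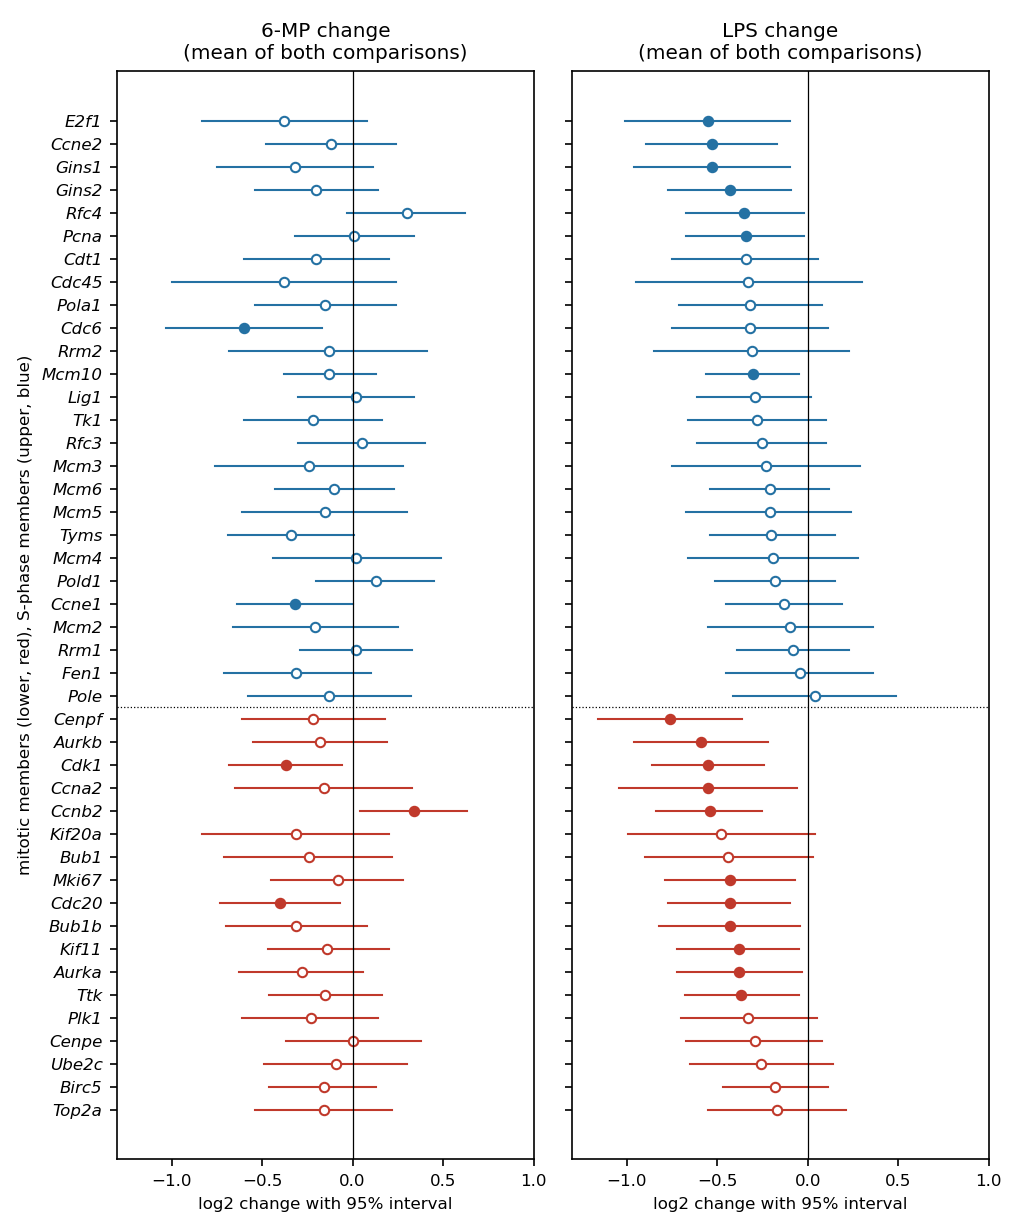
Log2 change of each member with its 95% interval for 6-MP (left) and LPS (right), each the mean of the comparison without and with the other agent. S-phase genes are above the dotted line in blue and mitotic genes below in red, filled dots have an unadjusted p under 0.05 in limma (5 members for 6-MP and 18 for LPS), and all but 1 of the 44 LPS changes are below 0.

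Cenpf, a kinetochore protein that attaches to microtubules, fell the furthest. It measured 8.31, 7.66 and 7.79 in the controls, 7.52, 7.95 and 8.13 with 6-MP, 7.49, 7.21 and 7.27 with LPS, and 6.45, 7.01 and 7.38 with LPS + 6-MP. All 6 arrays with LPS were below all 6 without it, which held for no other member and for 1.52% of all clusters. LPS minus control was -0.60 (SE 0.26, unadjusted p = 0.0401) and LPS + 6-MP minus 6-MP was -0.92 (SE 0.26, unadjusted p = 0.00396, adjusted p = 0.143). Their mean was -0.76 (SE 0.18, 95% interval -1.16 to -0.36), which is 1.69-fold lower (unadjusted p = 0.00135, adjusted p = 0.0383). This mean was also -0.76 without the 4 arrays that stood apart (adjusted p = 0.0416).

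Ccnb2 fell as well. Its values above show all LPS arrays below all controls, and the LPS + 6-MP arrays below those with 6-MP. The mean of both LPS comparisons was -0.54 (SE 0.14, 95% interval -0.84 to -0.25, unadjusted p = 0.00177, adjusted p = 0.0459), and -0.48 (adjusted p = 0.14) without the 4 arrays that stood apart. Cdk1 was at -0.55 (SE 0.14, 95% interval -0.86 to -0.24, unadjusted p = 0.00221, adjusted p = 0.0538), and at -0.81 (unadjusted p = 0.00174, adjusted p = 0.0846) in the presence of 6-MP.

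The 2 adjusted calls were lost in part or whole in 11 of 12 fits that left out 1 array. There were 2 calls without LPS + 6-MP 3. There was 1 adjusted call without control 2, 6-MP 1 or LPS + 6-MP 2, and none without control 1, control 3, 6-MP 2, 6-MP 3, LPS 1, LPS 2, LPS 3 or LPS + 6-MP 1. The unadjusted p of Cenpf, Ccnb2, Cdk1, Aurkb and Cdc20 stayed under 0.05 in all 12 of these fits (highest unadjusted p 0.00444, 0.00573, 0.00703, 0.0134 and 0.0393).

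Aurkb is the kinase that corrects faulty attachments of chromosomes. It was 11.21, 10.69 and 11.24 in the controls, 10.46, 11.02 and 10.78 with 6-MP, 10.52, 10.15 and 10.36 with LPS and 9.81, 10.51 and 10.51 with LPS + 6-MP. LPS arrays were below all controls, whereas LPS + 6-MP overlapped 6-MP. LPS minus control was -0.70 (SE 0.24, unadjusted p = 0.0127, adjusted p = 0.296), and the mean of both LPS comparisons was -0.59 (SE 0.17, adjusted p = 0.0818). Without the 4 arrays that stood apart that mean was -0.59 with an adjusted p of 0.0466.

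Other mitotic kinases and cyclins were lower at the unadjusted limit in the mean of both LPS comparisons, Ccna2 (cyclin A2) at -0.55 (unadjusted p = 0.031) and Aurka, a kinase of the spindle poles, at -0.38 (unadjusted p = 0.0339). Plk1 was at -0.33 (unadjusted p = 0.0811). Of the checkpoint and anaphase genes, Cdc20 was at -0.43 (unadjusted p = 0.015), Bub1b at -0.43 (unadjusted p = 0.035) and the checkpoint kinase Ttk at -0.37 (unadjusted p = 0.0255), whereas the checkpoint kinase Bub1 at -0.44 (unadjusted p = 0.0619) and Ube2c, the ubiquitin-conjugating enzyme of the anaphase-promoting complex, at -0.26 (unadjusted p = 0.179) did not reach the limit. Of the spindle and centromere genes besides Cenpf, the spindle motor Kif11 was at -0.38 (unadjusted p = 0.028). The motor of cell separation Kif20a (-0.48), the kinetochore motor Cenpe (-0.29) and Birc5 (-0.18), a partner of Aurkb, had unadjusted p over 0.05. Mki67 was at -0.43 (unadjusted p = 0.0233) and Top2a at -0.17 (unadjusted p = 0.347).

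Among S-phase genes the G1/S regulators E2f1 and Ccne2 had the lowest p with LPS alone. In the mean of both LPS comparisons Ccne2, Gins2 and Gins1 had the lowest. E2f1, the transcription factor that switches on many of these genes, was 7.04, 7.14 and 7.59 in the controls, 6.41, 7.24 and 6.53 with 6-MP, 7.03, 6.30 and 6.32 with LPS and 5.84, 6.55 and 6.60 with LPS + 6-MP. The LPS arrays lay below all controls, narrowly so for LPS 1, and LPS + 6-MP overlapped 6-MP. LPS minus control was -0.71 (SE 0.30, unadjusted p = 0.0332, adjusted p = 0.472), lost at the unadjusted limit without control 3, LPS 2 or LPS 3 (highest unadjusted p = 0.125), and -0.64 (unadjusted p = 0.0788) without the 4 arrays that stood apart. In the mean of both LPS comparisons E2f1 was at -0.55. That lost the unadjusted limit without control 3, 6-MP 2, LPS 3 or LPS + 6-MP 1 (highest unadjusted p = 0.0575). E2f1 lay close to the silent level in these arrays.

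Ccne2, the partner of Cdk2 at the start of S phase, was at -0.51 with LPS alone (unadjusted p = 0.0489) and at -0.55 after 6-MP (unadjusted p = 0.0354). Its values were 10.51, 10.56 and 9.97 in the controls, 10.21, 10.09 and 10.43 with 6-MP, 9.54, 10.07 and 9.90 with LPS and 9.65, 9.36 and 10.07 with LPS + 6-MP. LPS overlapped the controls and LPS + 6-MP lay below all 6-MP arrays. The mean was -0.53 (SE 0.16, unadjusted p = 0.00721, adjusted p = 0.109), and it kept the unadjusted limit in all 12 fits that left out 1 array (highest unadjusted p = 0.0214). Ccne1 was at -0.13.

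Of the licensing and helicase genes, Gins1 (-0.53, unadjusted p = 0.0204), Gins2 (-0.43, unadjusted p = 0.0162) and Mcm10 (-0.30, unadjusted p = 0.0231), all of which help the helicase to start, were lower at the unadjusted limit in the mean of both LPS comparisons. The Mcm subunits themselves were at -0.10 for Mcm2, -0.23 for Mcm3, -0.19 for Mcm4, -0.21 for Mcm5 and -0.21 for Mcm6, with unadjusted p from 0.183 for Mcm6 to 0.651 for Mcm2. Cdc6 was at -0.32 (unadjusted p = 0.133). The enzymes of nucleotide supply had a median of -0.24, with none past the limit, Rrm2 at -0.31 and Tyms at -0.20.

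Among genes of polymerases and clamp, Rfc4 (-0.35, unadjusted p = 0.0376) and Pcna (-0.34, unadjusted p = 0.0411) were lower at the unadjusted limit. Pcna, the clamp that holds polymerases on DNA, was 15.77, 15.81 and 15.63 in the controls, 15.73, 15.67 and 15.74 with 6-MP, 15.10, 15.78 and 15.22 with LPS and 15.78, 15.28 and 15.16 with LPS + 6-MP. The 4 arrays that stood apart all lay between 15.73 and 15.81 whatever their group, and the other 4 LPS arrays between 15.10 and 15.28. Without the 4 arrays that stood apart the mean LPS difference was -0.52 (SE 0.14, unadjusted p = 0.00447, adjusted p = 0.0714). With them the limit was lost in 9 of 12 fits that left out 1 array (highest unadjusted p = 0.104), all but those without control 3, LPS 2 or LPS + 6-MP 1.

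**Figure D5:**
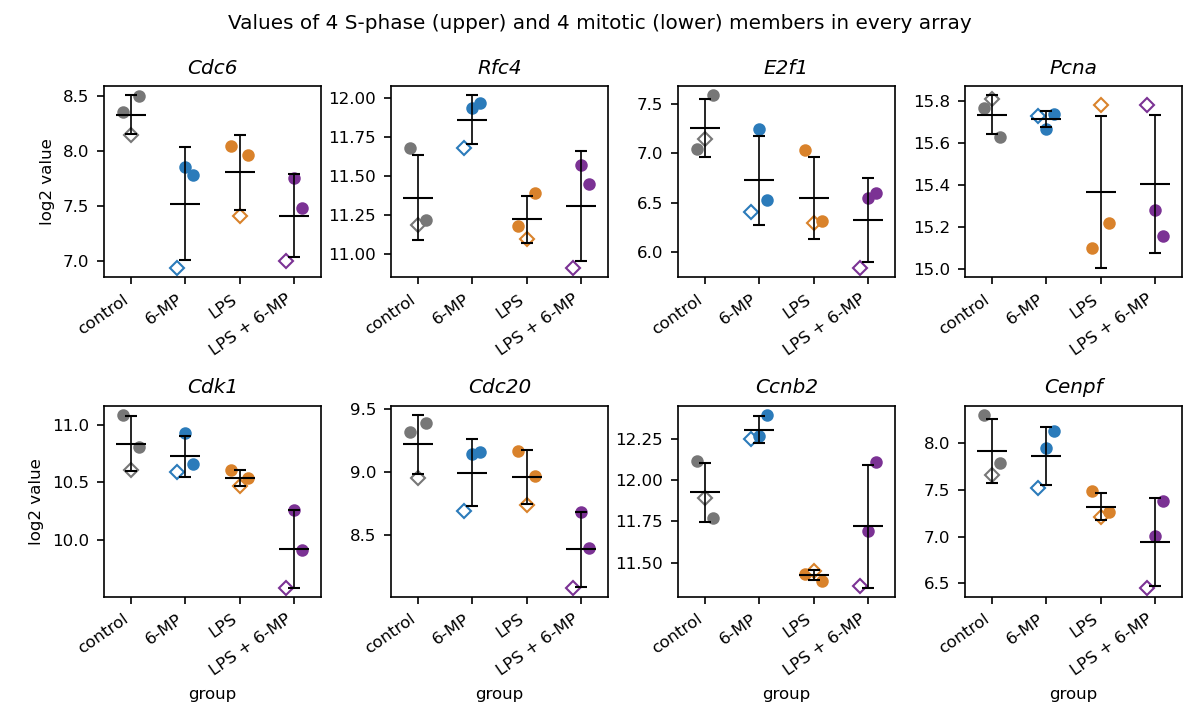
Log2 values of 4 S-phase members (upper row) and 4 mitotic members (lower row) in each array by group, each panel on its own axis, with bars for the group mean and SD of 3 arrays. Open diamonds are the 4 arrays that stand apart. Cenpf is at most 7.49 in all 6 LPS arrays and at least 7.52 in the 6 others, and Pcna is low in the LPS arrays except the diamonds.

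In counts, LPS minus control had 2 of 26 S-phase and 3 of 18 mitotic members lower at an unadjusted p under 0.05, where 4.25% of all clusters were. After 6-MP, LPS had 4 S-phase (Rfc4, Ccne2, Gins2 and Rfc3) and 6 mitotic members (Cdk1, Cenpf, Ccnb2, Cdc20, Bub1b and Aurka) lower, where 5.88% of all clusters were. In the mean of both, 7 S-phase and 11 mitotic members were lower, where 9.41% of all clusters were. None was higher in any of the 3, where 4.76%, 5.29% and 6.76% of all clusters were. At an adjusted p under 0.05 the counts were 0 and 0 (0.162% of all clusters lower), 0 and 0 (0.239%), and 0 S-phase and 2 mitotic (1.31%). On the 8 arrays other than those that stood apart, LPS minus control had 1 S-phase and 4 mitotic members lower (5.75% of all clusters), LPS after 6-MP had 3 and 6 (7.21%), and the mean had 6 S-phase and 13 mitotic members lower (10.9% of all clusters), 2 of the mitotic ones at an adjusted p under 0.05 (2.01%), Cenpf and Aurkb.

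Counts after 6-MP depended on single arrays. They rose from 10 members to 18 without 6-MP 1 and went down to 3 without 6-MP 3 and to 4 without 6-MP 2 or LPS + 6-MP 1. In the mean of both, 18 members became 10 without control 1 and 11 without 6-MP 2, 6-MP 3 or LPS + 6-MP 1. Groups did not overlap, with LPS lower, for 6 S-phase members (Mcm10, Cdc6, Gins1, Gins2, Tyms and E2f1) and 7 mitotic members (Ccnb2, Cdk1, Aurkb, Ttk, Kif11, Cenpf and Mki67), where 8.18% of all clusters were. After 6-MP they did not overlap for Mcm10, Pola1, Rfc4, Lig1 and Ccne2 and for Ccnb2, Cdk1, Aurka, Cdc20 and Cenpf, where 7.64% of all clusters were. No member lay wholly above in either comparison (6.88% and 7.13% of all clusters) or with all 6 LPS arrays above all 6 others (2.39%).

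The median change with LPS was -0.19 over S-phase members (23 of 26 below 0) and -0.38 over mitotic members (18 of 18 below 0), beside -0.04 over all clusters, 56.6% of which were below 0. After 6-MP it was -0.34 (24 of 26) and -0.46 (18 of 18), beside -0.03 and 54.5%. In the mean of both it was -0.29 (25 of 26) and -0.43 (18 of 18), beside -0.03 and 55.8%. Role groups in that mean were at -0.30 for licensing and helicase, -0.27 for polymerases and clamp, -0.53 for G1/S regulators, -0.55 for mitotic cyclins and kinases, -0.43 for checkpoint and anaphase, -0.38 for spindle and centromere and -0.30 for chromosome structure. The medians of the mean were -0.31 and -0.45 without the 4 arrays that stood apart.

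Whether 6-MP altered the LPS difference was read from the interaction, the LPS difference after 6-MP minus that without it. No member passed the unadjusted limit for it, where 0.707% of all clusters were lower and 1.25% higher at that limit, and no cluster passed the adjusted one. The lowest p was that of Cdk1, at -0.51 (SE 0.29, 95% interval -1.13 to 0.11, unadjusted p = 0.0995). Among S-phase genes Rfc3, a clamp loader subunit, was at -0.52 (95% interval -1.23 to 0.18, unadjusted p = 0.131) and Fen1 at -0.55 (95% interval -1.36 to 0.26, unadjusted p = 0.168). The median was -0.09 over S-phase (15 of 26 below 0) and -0.05 over mitotic members (13 of 18), beside -0.01 over all clusters, 51.8% of which were below 0. These intervals span more than 1 log2 unit, so sizeable interactions were not detectable with 3 arrays a group.

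Since thiopurines act through DNA, S-phase genes were set against mitotic genes. With 6-MP the medians of both classes lay close together, S-phase minus mitotic being 0.04 without LPS and -0.04 with it. With LPS the S-phase median was above the mitotic one, by 0.18 without 6-MP, 0.12 after it and 0.14 in the mean of both. By array, the S-phase deviation minus the mitotic one was -0.28, -0.01 and -0.05 in the controls, -0.08, -0.07 and -0.11 with 6-MP, 0.08, 0.03 and 0.02 with LPS and 0.15, 0.12 and 0.07 with LPS + 6-MP. It was thus below 0 in the 6 arrays without LPS and above 0 in the 6 arrays with it, the largest distance being that of control 1. These are descriptions with no test, as genes of a class are not replicates. With the further replication and mitosis genes described next in place of the members, the differences with LPS were smaller, at 0.11, 0.01 and 0.05.

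Other genes of the same processes were taken from fixed lists. For single genes of these lists and of those below, fits that left out arrays were not examined, unlike for the members. Over all clusters, 1.55% were lower and 2.26% higher at the unadjusted limit in the mean of both 6-MP comparisons, and 9.41% lower and 6.76% higher in the mean of both LPS comparisons. Of 31 further replication genes, 1 was lower at the unadjusted limit in the mean of both 6-MP comparisons (Dscc1 of an alternative clamp loader, -0.33) and 10 were lower in the mean of both LPS comparisons, with medians of -0.13 and -0.28. Rfc2, another clamp loader subunit, fell with LPS (-0.51, SE 0.13, adjusted p = 0.0487), and Gmnn, the inhibitor of licensing, was at -0.60 (adjusted p = 0.117). Of 39 further mitosis genes, 3 were lower with 6-MP (Cdca3 -0.60, Cdca5 -0.49, Mybl2 -0.36) and 1 higher (Ckap2, 0.38), all at adjusted p = 1, and 13 were lower with LPS. Cenpk of the inner kinetochore (-0.75, SE 0.16, adjusted p = 0.017) and the spindle protein Nusap1 (-0.69, SE 0.17, adjusted p = 0.0468) fell with LPS. The median of these genes was -0.15 with 6-MP and -0.34 with LPS.

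Regulators upstream of both classes were mixed. Of 12 genes of the E2F and Rb families, none passed the unadjusted limit with 6-MP. With LPS the repressive family member E2f4 rose (0.54, SE 0.13, adjusted p = 0.0319), and E2f8 (-0.45) and the Rb relative Rbl2 (-0.35) were lower at the unadjusted limit. Of 12 genes of G1 cyclins, their kinases and inhibitors, Cdkn1b, the inhibitor p27, fell with LPS (-0.80, SE 0.14, adjusted p = 0.00464). Cdkn2c, also an inhibitor, was at -0.58 (adjusted p = 0.12) and the kinase Cdk6 at 0.90 (adjusted p = 0.119). Cdkn2a, which has an inhibitor among its products, lay the other way at 0.36 (unadjusted p = 0.0322, adjusted p = 0.249). None of this list passed the unadjusted limit with 6-MP. Of 11 replication checkpoint genes only the Cdk1 inhibitor Wee1 was past the unadjusted limit with LPS (-0.28) and none with 6-MP. Of 6 mismatch repair genes 4 were found, none past it with 6-MP and Msh3 at -0.51 with LPS (adjusted p = 0.0733).

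Core histones, which a cell makes mainly in S phase, were taken as a further readout. Of 49 histone clusters, 19 were lower at the unadjusted limit in the mean of both 6-MP comparisons (median -0.29), where 1.55% of all clusters were. With 6-MP alone 1 was lower (median -0.15), where 0.905% of all clusters were. In the presence of LPS 16 were lower with 6-MP (median -0.39), where 1.4% were. With LPS alone 5 were lower (4.25% of all clusters), and with LPS after 6-MP 34 were (5.88%). In the mean of both LPS comparisons 37 were lower (median -0.41), where 9.41% of all clusters were. Of these, 5 were at an adjusted p under 0.05 (1.31% of all clusters). H2bc21 was at -0.83 with LPS (SE 0.14, adjusted p = 0.00404) and H2bc12 at -0.66 (SE 0.15, adjusted p = 0.0219). The list was made by gene symbol. Whether each of its genes, H2bc21 among them, is made mainly in S phase was not checked. Without the 4 arrays that stood apart the counts in the means of both comparisons became 0 with 6-MP (3.24% of all clusters) and 26 with LPS (10.9%). Of the latter, 1 was at an adjusted p under 0.05 (2.01%). Histone genes are near-identical copies, so probes may pick up RNA of several of them and their values are uncertain.

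Markers of the cells in the culture moved with LPS beside the members. Of 10 macrophage genes, 7 were lower and 2 higher at the unadjusted limit in the mean of both LPS comparisons, where 9.41% and 6.76% of all clusters were, with Fcgr3 (-0.97, adjusted p = 0.0297) and the complement gene C1qa (-1.14, adjusted p = 0.0411) lower and Adgre1, the F4/80 antigen, higher (0.80, adjusted p = 0.0411). The mean level of the list ranged over 10.29 to 11.11 in control, 10.01 to 10.64 in 6-MP, 9.67 to 10.33 in LPS and 9.43 to 10.25 in LPS + 6-MP arrays. Fabp7, which marks glia and their progenitors, fell by 1.51 on the log2 scale with LPS (SE 0.27, adjusted p = 0.00489), and 3 of 8 glial genes were lower. Of 10 epithelial genes 2 were lower, of 5 endothelial genes 1 was lower and 1 higher, of 8 mesenchyme genes 1 was lower, and of 14 neuronal and 10 smooth muscle genes none was lower or higher at the unadjusted limit. All 17 interferon-stimulated genes were higher with LPS at that limit.

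With 6-MP fewer markers were past the limit. In the mean of both 6-MP comparisons Fabp7 was at -0.81 (SE 0.27, unadjusted p = 0.0101), the endothelial cadherin Cdh5 at -0.50 (unadjusted p = 0.0367) and the neurofilament gene Nefm at -0.38 (unadjusted p = 0.04), all at adjusted p = 1. These were 1 of 8 glial, 1 of 5 endothelial and 1 of 14 neuronal genes, where 1.55% of all clusters were lower. No smooth muscle, macrophage, epithelial or mesenchyme gene of the lists passed the limit, with list medians of -0.21, -0.28, -0.16 and -0.05. The part of these cell types in the members' values with LPS or 6-MP was not tested.

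The members' LPS differences were also set beside the motifs of their promoters. In the mean of both LPS comparisons the 12 mitotic members with a CHR had a median of -0.41 (range -0.76 to -0.17) and the 3 without one (Birc5, Bub1 and Cenpe) a median of -0.29. The 3 S-phase members with a CHR were at -0.10, and the 18 without it at -0.29. S-phase members with an E2F-type motif had a median of -0.24 (10 genes) and those without it -0.30 (11 genes). With 6-MP the S-phase medians were -0.15 with the E2F-type motif and -0.21 without. These are small groups that differ in class as well as in motif, and no test was made on them.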

How the data were processed

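Total RNA (100 ng) of 12 ENS primary cultures, 3 a group, was extracted with Trizol per the labels (the study's methods name Nucleozol, in the part on quantitative PCR), labelled with the GeneChip WT Plus kit and hybridised to Clariom S mouse arrays. The deposited table holds log2 values for 28846 entries, and the authors worked with the Transcriptome Analysis Console. Which summarisation and normalisation they used, and the genome build, are not given in the sources used here, so background correction was not repeated. Values run from 2.61 to 18.79. Array data have no read depth, and 3 arrays a group limit the precision. Replicates are 3 independent experiments per the study's methods. Whether equal replicate numbers mark 1 experiment is not stated, and arrays were treated as unpaired. Each p-value sets a difference of groups against the spread of arrays within groups, which is estimated with help from all clusters.

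Control entries (6640) were left out. Of the 22206 clusters tested, 19572 carried 1 gene symbol and 2634 none in the platform annotation, and the cluster with the highest mean stood for a symbol. The members, further lists and limits were chosen with earlier results of these data known. All 12 arrays were fitted as 4 group means in limma 3.58.1 (R 4.3.3; lmFit, contrasts.fit, eBayes, with 8 residual and 4.25 prior degrees of freedom), with Benjamini-Hochberg adjustment over all clusters. The text names, for each comparison, the 3 S-phase and 3 mitotic members with the lowest p, 12 set members (among them Mcm2, Pcna, Cdk1 and Mki67), and up to 4 genes of a further list past an unadjusted p of 0.05. Other members are named to complete their role group. No count, median or level was tested as a list. The fit was tested on simulated data.

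Alternatives were a replicate block, an intensity trend, median centring, quantile normalisation, a filter on dim clusters, array weights, the methods' t-test, further genes in place of the members, and leaving out each array. Leaving out the 4 arrays that stood apart was added after seeing the data. Promoters and start sites are those of RefSeq on GRCm38.p6, and 8 members had no window in the table used.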

Additional observations from a re-analysis of the deposited data

How the results depend on the processing

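No single member past the unadjusted limit changed direction under the alternatives. Class medians did cross 0 when single arrays were left out, with 6-MP alone (ranges below) and for the interaction. For the interaction they ranged over -0.26 to 0.05 (S-phase) and -0.24 to 0.11 (mitotic). The number of members at an unadjusted p under 0.05 was 2 with 6-MP alone, 3 with 6-MP beside LPS, 5 in their mean, 5 with LPS alone, 10 with LPS after 6-MP, 18 in their mean and 0 for the interaction. Leaving out 1 array in turn gave ranges of 1 to 4, 1 to 4, 2 to 8, 1 to 5, 3 to 18, 10 to 25 and 0 to 2. The 2 members at an adjusted p under 0.05 in the mean LPS comparison ranged over 0 to 2. With the replicate number as a block they were 0, 6-MP alone had 1 and LPS alone had 3 at the unadjusted limit. Equal replicate numbers did not regularly mark the arrays most alike. In deviations from group means, same-numbered arrays correlated at -0.45 to 0.60, 6 of 18 pairs over 0.1. The closest array of another group had the same number in 8 of 36 cases. Whether equal numbers mark 1 experiment cannot be told from these values. With median centring the adjusted count was 0 and LPS alone had 3. With quantile normalisation LPS alone had 3 and LPS after 6-MP had 6. The methods' t-test gave 1 with 6-MP alone, 1 with 6-MP beside LPS and 3 with LPS after 6-MP. Array weights gave 9 with LPS alone. The cause was not tested in any of these.

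S-phase minus mitotic medians ranged, leaving out 1 array, over 0.08 to 0.23 with LPS alone, 0.11 to 0.26 after 6-MP and -0.09 to 0.07 for the interaction. Further genes in place of the members gave 0.01 after 6-MP and 0.05 in the mean LPS comparison, and leaving out the 4 arrays that stood apart gave -0.13 for the interaction. The S-phase median with 6-MP alone ranged over -0.19 to 0.06 and the mitotic one over -0.23 to 0.03, whereas in the mean LPS comparison they stayed at -0.35 to -0.19 and -0.51 to -0.33. Of the single genes named at the unadjusted limit, 542 values under the alternatives kept it and 195 kept their direction only. Array data give no counting error, and members near the silent level (E2f1, Cenpf) are measured least well.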
